A study of Rattus norvegicus with 12 samples.

Results

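The cytosolic heat shock proteins are a named set of 7 genes: Hspb1, Hspa1a, Hspa1b, Hspa8, Hsph1, Dnajb1 and Hsp90aa1. Their probes were found by matching the accession printed on the array to a gene symbol. This gave 9 probes of 4 members (Hspb1, Hspa8, Hsph1 and Hsp90aa1), which stand among 19412 features tested. All 4 passed the filter on dim probes, and every one of the 9 probes was well above background and unsaturated on all 12 arrays. No probe was matched to Hspa1a, Hspa1b or Dnajb1, and these 3 are not analysed here.

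Heat shock proteins are molecular chaperones. They hold unfolded proteins in solution, refold them, or pass them on for degradation. Many of their genes are switched on together when heat shock factor 1 is released during protein stress and binds heat shock elements in their promoters. Small heat shock proteins such as HSPB1 hold clients without using ATP, and HSP70 proteins fold them in cycles of ATP use that J proteins start and nucleotide exchange factors end. HSP90 then matures kinases and steroid receptors. In brain, neurons carry much constitutive HSC70 (Hspa8) and HSP90, while Hspb1 is known from reactive glia and blood vessels.

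The study compared gene expression in the striatum of male Wistar rats whose left medial forebrain bundle, the tract of the dopamine fibres, had been injected with the neurotoxin 6-OHDA (6-hydroxydopamine). A methamphetamine (METH) challenge of 3 mg/kg screened the rats, and those making 7 or more turns per minute were kept. It asked how the antiepileptic zonisamide (ZNS), which is given in Parkinson's disease too, acts together with the dopamine precursor L-DOPA. Treatment was intraperitoneal and daily for 7 days. The design assigned 3 animals to each of 4 groups, and there are 3 arrays per group. The non-lesioned group was the striatum opposite the lesion after saline, so that it also comes from lesioned rats. The saline group was the lesioned striatum after saline. The L-DOPA group was the lesioned striatum of rats given 100 mg/kg L-DOPA, which followed benserazide, an inhibitor of its conversion outside the brain. The combined group was the lesioned striatum after the same L-DOPA and zonisamide at 50 mg/kg, given 30 min later. No group had zonisamide alone, all groups share the toxin and the methamphetamine challenge, and age and the time from the last dose to dissection are not given in the sources used here. The labels do not say whether the non-lesioned and saline arrays come from the same rats.

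A level here is the log2 of an array's processed signal minus that array's 75th percentile, so that it can be compared between arrays for 1 probe but not between probes. The 75th percentile ranged from 793 to 1737 intensity units. Genes of striatal spiny neurons marked the tissue: 9 of 10 were tested, and their summed level (log2 of the sum of their scaled signals) lay between 7.09 and 7.66 on the 12 arrays. The dopamine signalling protein gene Ppp1r1b, for example, lay between 4.68 and 5.78. P-values measure the spread between these arrays, and the small number of arrays limits the precision. In bulk tissue, fewer cells of a type and less RNA per cell cannot be told apart. The arrays lay on 5 slides, of which 1 held replicate 1 of all 4 groups.

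The promoters show which members carry the letters that heat shock factors are known to bind. The windows run from 250 bases before to 50 bases after the RefSeq start (build GRCr8), 5′ to 3′ on the gene's strand. Capitals mark matches to a heat shock element of at least 2 units, GAANNTTC or TTCNNGAA, and overlapping matches form an element of 3 units. Shown are the 3 matched members with a window and Bag3, a partner of HSP70 described further on. The windows are chr12:26432252-26432551 (minus strand) for Hspb1, chr8:50080264-50080563 (plus strand) for Hspa8, chr12:10427118-10427417 (plus strand) for Hsph1 and chr1:192533210-192533509 (plus strand) for Bag3.
Hspb1: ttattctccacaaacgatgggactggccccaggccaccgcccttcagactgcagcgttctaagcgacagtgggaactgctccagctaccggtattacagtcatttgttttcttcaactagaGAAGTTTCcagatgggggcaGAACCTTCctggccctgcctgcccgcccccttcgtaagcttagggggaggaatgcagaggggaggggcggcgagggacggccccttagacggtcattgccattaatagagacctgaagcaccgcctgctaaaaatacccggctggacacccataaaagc
Hspa8: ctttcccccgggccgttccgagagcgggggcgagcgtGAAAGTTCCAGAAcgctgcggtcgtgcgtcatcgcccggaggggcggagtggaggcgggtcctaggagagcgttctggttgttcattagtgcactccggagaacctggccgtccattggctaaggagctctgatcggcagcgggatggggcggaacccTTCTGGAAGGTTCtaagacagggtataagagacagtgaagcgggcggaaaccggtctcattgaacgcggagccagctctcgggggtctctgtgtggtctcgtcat
Hsph1: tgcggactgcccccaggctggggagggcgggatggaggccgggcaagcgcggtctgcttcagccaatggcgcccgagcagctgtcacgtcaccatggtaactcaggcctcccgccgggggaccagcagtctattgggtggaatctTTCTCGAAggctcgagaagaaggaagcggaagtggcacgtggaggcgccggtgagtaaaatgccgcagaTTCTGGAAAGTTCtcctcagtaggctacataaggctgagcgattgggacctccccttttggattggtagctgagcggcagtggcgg
Bag3: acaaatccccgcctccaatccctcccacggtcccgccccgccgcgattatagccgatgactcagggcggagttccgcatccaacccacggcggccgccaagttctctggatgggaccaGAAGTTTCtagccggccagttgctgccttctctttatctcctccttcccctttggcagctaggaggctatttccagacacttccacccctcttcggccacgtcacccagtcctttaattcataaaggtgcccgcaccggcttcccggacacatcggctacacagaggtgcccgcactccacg

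Windows were at hand for 5 of the 7 members, Dnajb1 and Hspa1a included; Hsp90aa1 and Hspa1b had none. An element of 3 units, with GAA and TTC in turn and 2 free bases between neighbours, was found in 2 of the 5 windows. Hspa8 held 2 such elements, starting 213 and 55 bases before the start, and Hsph1 held 1, starting 36 bases before it. Of all 33469 windows of the same length, 0.798% held one. An element of 2 units was found in 4 of the 5 windows against 15.9% of all windows, both strands being read. Hspb1 held 2 that did not overlap, starting 129 and 109 bases before the start, and neither makes an element of 3 units. Bag3 held 1, starting 132 bases before the start. Of the other motifs searched, TATAAA was in 0 of the 5 windows (14.2% of all windows) and CCAAT in 3 of them (37.5% of all windows). A match describes the letters and is not evidence that a factor binds there.

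Hspb1, the small heat shock protein also known as HSP27, had the largest differences with L-DOPA and with zonisamide among the 4 members' brightest probes. Its level in the non-lesioned striatum was -1.55, -1.56 and -1.01. In the lesioned striatum after saline it was -1.63, -1.43 and -1.36. After L-DOPA the 3 arrays read -1.21, 0.75 and -0.08, and after L-DOPA with zonisamide they read -1.65, -1.34 and -1.26. All 3 L-DOPA arrays were above all 3 saline arrays and above all 3 arrays of the combined group, but the L-DOPA array of replicate 1 was below replicate 3 of the non-lesioned side. The group means were -1.37 ± 0.31 (SD, n = 3) in the non-lesioned striatum, -1.47 ± 0.14 after saline, -0.18 ± 0.98 after L-DOPA and -1.42 ± 0.21 after both drugs. The spread was largest in the L-DOPA group, which held the highest array of all 12; the range over the 12 arrays was 5.27-fold.

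**Figure D1:**
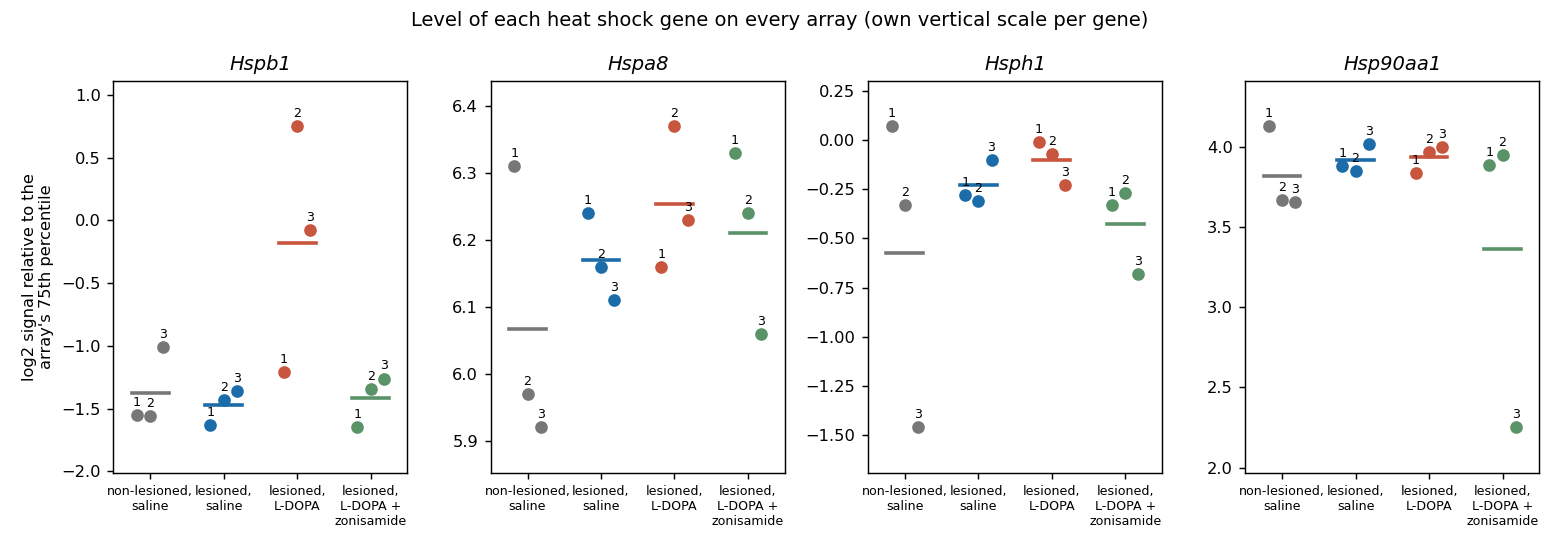
Level of each member's brightest probe on every array (log2 of the signal relative to the array's 75th percentile, vertical axis, own scale per gene) by group (horizontal axis); points are arrays numbered by replicate and bars are group means. For Hspb1 the L-DOPA arrays at -1.21, -0.08 and 0.75 lie above the saline arrays, while for Hspa8 all arrays lie between 5.92 and 6.37.

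The difference between L-DOPA and saline in Hspb1 was 1.29 ± 0.40 on the log2 scale (limma's moderated standard error), a fold of 2.45 with a 95% interval from 1.32 to 4.53. It did not pass after Benjamini-Hochberg adjustment over all features in limma (adjusted p = 0.247). Between the combined group and L-DOPA alone it was -1.24 ± 0.40, a fold of 0.425 with an interval from 0.229 to 0.786 (limma adjusted p = 0.235). These comparisons share the 3 L-DOPA arrays. Against the non-lesioned striatum the L-DOPA group differed by 1.19 ± 0.40 (limma adjusted p = 0.208).

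The other Hspb1 differences were small beside their errors. The lesion gave -0.10 ± 0.40, with an interval from -0.98 to 0.79 (limma adjusted p = 0.961). The combined group differed from saline by 0.05 ± 0.40 and from the non-lesioned striatum by -0.04 ± 0.40 (limma adjusted p = 0.986 and 1). Each interval covers the range from -0.83 to 0.79, so these values do not show that the groups are equal.

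Single arrays carried much of the Hspb1 difference. Without replicate 1 of the L-DOPA group, L-DOPA against saline gave 1.81 and passed (limma adjusted p = 0.0273), as did zonisamide at -1.75 (adjusted p = 0.025) and L-DOPA against the non-lesioned side at 1.71 (adjusted p = 0.0226). Without replicate 2 of the L-DOPA group the same comparisons gave 0.83, -0.77 and 0.73, and none passed (limma adjusted p = 0.492, 0.531 and 0.46). The calls over all features shifted in the same way. In these comparisons 210, 253 and 350 features were called without replicate 1, and 8, 6 and 6 without replicate 2. With all arrays the counts were 84, 93 and 225. On the slide that held replicate 1 of all groups, L-DOPA minus saline was 0.42, and on the slide that held replicate 2 of the lesioned groups it was 2.18. The zonisamide difference was -0.44, -2.09 and -1.18 on the slides of replicates 1, 2 and 3. After normexp background correction with quantile normalization, L-DOPA minus saline was 0.78 (limma adjusted p = 0.446).

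Choroid plexus RNA, from the tissue inside the neighbouring ventricle, differed widely between these arrays. Its most abundant transcript, transthyretin (Ttr), read 2.32, 3.05 and 6.73 in the non-lesioned striatum and -0.74, 4.35 and 3.30 after saline. It read 4.31, 7.27 and 6.89 after L-DOPA and 4.28, 2.72 and 6.67 after both drugs. Replicate 1 was the lowest array of the L-DOPA group for both Ttr and Hspb1, and replicate 2 the highest for both. In the non-lesioned and combined groups a high Ttr of 6.73 or 6.67 came with Hspb1 at -1.01 and -1.26, the highest of those groups. The order was not the same on all arrays. In the saline group the highest Ttr, 4.35, came with Hspb1 at -1.43, and the highest Hspb1, -1.36, with Ttr at 3.30. In the combined group the lowest Ttr, 2.72, came with Hspb1 at -1.34, while the lowest Hspb1 was -1.65. The value of -1.01 was below 2 of the 3 L-DOPA arrays, and that of -1.26 was below all 3.

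Of the choroid plexus list, 9 of 10 genes were tested and 9 of 9 were higher after L-DOPA than after saline (median log2 change 2.91, against -0.03 for all features), with 0 called. With zonisamide 9 of 9 were lower (median -1.57, against -0.03), again with 0 called. Their summed level ranged from 2.43 to 7.05 in the non-lesioned group, -0.09 to 4.4 after saline, 4.36 to 7.40 after L-DOPA and 2.79 to 6.76 after both drugs. On most arrays this sum lay close to the level of Ttr alone, so it adds little to the Ttr values above. With Ttr as a covariate, the Hspb1 difference between L-DOPA and saline was 0.75 (limma adjusted p = 0.952), and that for zonisamide was -1.01 (adjusted p = 0.337). With this covariate 0 of all features were called for L-DOPA and 10 for zonisamide, against 84 and 93 without it. Ttr itself was higher after L-DOPA than after saline, so the covariate can take up part of the group difference. The part of choroid plexus RNA in the Hspb1 difference was not tested.

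**Figure D2:**
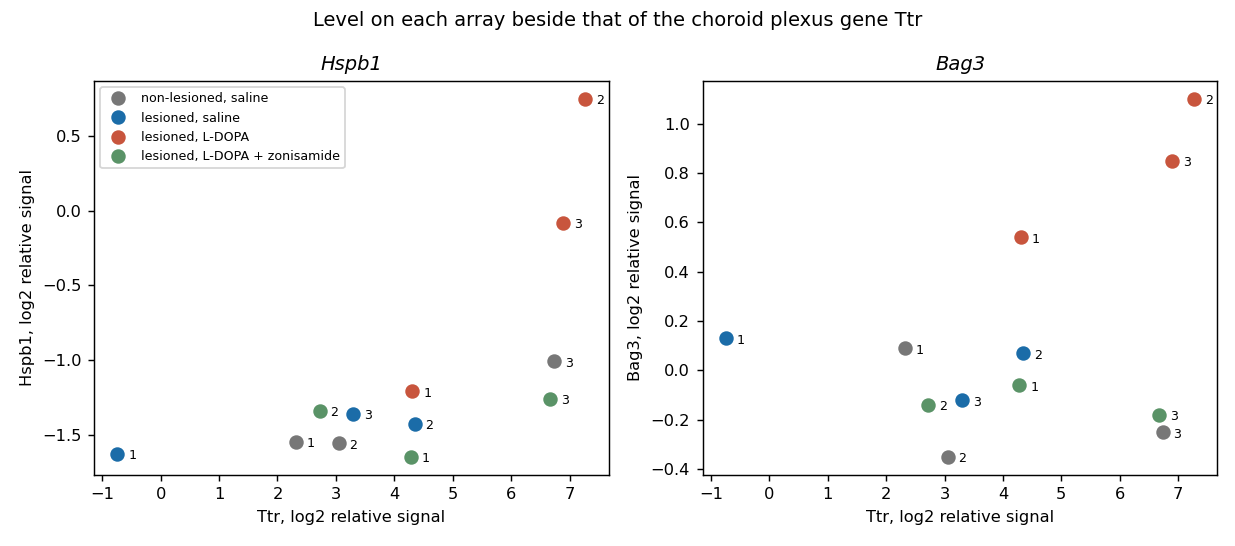
Level of Hspb1 (left) and Bag3 (right) on each array (vertical axis) against that of the choroid plexus gene Ttr (horizontal axis), both as log2 of the signal relative to the array's 75th percentile; colours are groups and numbers are replicates. The L-DOPA arrays of replicates 2 and 3 are high in Ttr (7.27 and 6.89) and in Hspb1 (0.75 and -0.08), while other arrays with Ttr at 6.73 and 6.67 have Hspb1 at -1.01 and -1.26.

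Other marker lists were read on the same arrays, and not all of them moved with Hspb1. For their counts of direction, 46.7% of all features were higher with L-DOPA and 46.2% with zonisamide. The summed level of 8 endothelial genes was 2.93 to 3.42 after L-DOPA, 2.61 to 2.95 after saline, 2.09 to 2.63 after both drugs and 2.27 to 2.78 in the non-lesioned striatum. Endothelial genes were higher after L-DOPA in 6 of 8 (median 0.24) and lower with zonisamide in 7 of 8 (median -0.66), with 0 called in either comparison. Kdr, a receptor of vascular endothelial growth factor, differed by more than that median. It read 1.34, 2.34 and 1.78 after L-DOPA and from 0.35 to 0.65 after saline. The 7 mural cell genes, which mark the muscle cells and pericytes of vessels, were 3 higher and 4 lower with L-DOPA (median -0.01) and 7 of 7 lower with zonisamide (median -0.30), with 0 called in either. Their summed level was 1.84 to 2.25 after L-DOPA, 1.72 to 2.01 after saline and 1.51 to 1.95 after both drugs. Of 5 blood genes 4 were tested; all 4 were higher with L-DOPA and lower with zonisamide, with 0 called, and their summed level was 4.21 to 5.10 after L-DOPA, 4.27 to 4.60 after saline and 2.82 to 4.2 after both drugs.

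The summed level of 10 astrocyte genes was lower after L-DOPA, at 7.09 to 7.22, than after saline, at 7.29 to 7.65. With L-DOPA 6 of the 10 were higher and 4 lower (median 0.20), with 1 called. The median thus had the other sign from the sum, which weighs the brightest genes most. With zonisamide 3 were higher and 7 lower (median -0.48), with 0 called. The called gene, Timp1, an inhibitor of matrix proteases made by reactive astrocytes, rose with L-DOPA by 3.21 ± 0.56 (limma adjusted p = 0.0472). It read 0.99, 3.22 and 1.74 after L-DOPA against -1.26, -1.27 and -1.15 after saline, and again its highest array was replicate 2 of the L-DOPA group. Among 6 microglia genes, 2 were higher and 4 lower with L-DOPA (median -0.33), and likewise with zonisamide (median -0.38). Among 6 oligodendrocyte genes, 4 were higher and 2 lower with L-DOPA (median 0.22). With zonisamide 1 of these was higher and 5 were lower (median -0.29). In both lists 0 were called. Of the 9 spiny neuron genes tested, 3 were higher and 6 lower with L-DOPA (median -0.12), with 1 called higher (0.433% of all features called). With zonisamide 4 of them were higher and 5 lower, with 0 called. For L-DOPA against the non-lesioned side, 1 spiny neuron gene was called lower (1.16% of all features called). The part of these cell types in the Hspb1 difference was not tested.

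By pattern over the 12 arrays, the 3 named genes most like Hspb1 were Sfnl1 (Pearson's r = 0.929), Nrp1 (r = 0.919) and Mlec (r = 0.916). Nrp1 encodes neuropilin, a co-receptor for vascular endothelial growth factor and semaphorins, and Mlec a sugar-binding protein of the endoplasmic reticulum. The arrays share slides and their scaling, and these values describe likeness in these 12 arrays. Hspb1 was less like its fellow members: its r was 0.30 with Hspa8, 0.07 with Hsph1 and 0.12 with Hsp90aa1, each by the brightest probe. These are descriptions over the same 12 arrays.

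Hspa8 encodes HSC70, the HSP70 protein that cells make without stress and that strips clathrin from vesicles. By its brightest probe it read 6.31, 5.97 and 5.92 in the non-lesioned striatum and 6.24, 6.16 and 6.11 after saline. After L-DOPA it read 6.16, 6.37 and 6.23, and after both drugs 6.33, 6.24 and 6.06. The groups overlapped in all 6 comparisons, and the whole range over the 12 arrays was 1.36-fold.

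None of the Hspa8 differences passed. L-DOPA minus saline was 0.09 ± 0.15, with a 95% interval from -0.24 to 0.42 (limma adjusted p = 0.889). As a fold the interval ran from 0.845 to 1.33. Zonisamide gave -0.05 ± 0.15 and the lesion 0.10 ± 0.15 (limma adjusted p = 0.945 and 0.866). Of the windows shown above, that of Hspa8 held the most 3-unit heat shock elements, and any link to its levels was not tested.

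The other Hspa8 probes were dimmer. Probe 2 ranged from 4.30 to 4.85 and probe 3 from 1.68 to 2.84, in order of mean signal. Probe 4 read 0.57, 0.56 and 2.02 in the non-lesioned striatum and 1.40, 1.49 and -0.31 after L-DOPA, so that 1 array in each group stood far from the other 2. On that probe the saline arrays lay from 1.20 to 1.55 and those of the combined group from 1.57 to 1.70. The combined arrays were thus above all saline and all L-DOPA arrays on probe 4, with differences of 0.25 ± 0.49 and 0.77 ± 0.49 (limma adjusted p = 0.932 and 0.590 over all tested probes). Over the 12 arrays, r was -0.12 between probes 1 and 4 and 0.48 between probes 1 and 2. The sign of the Hspa8 difference between L-DOPA and saline depended on the probe, from 0.15 on probe 2 to -0.53 on probe 4.

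Hsph1 encodes the large HSP110 protein, a nucleotide exchange factor of HSP70. It read 0.07, -0.33 and -1.46 in the non-lesioned striatum and -0.28, -0.31 and -0.10 after saline. After L-DOPA it read -0.01, -0.07 and -0.23, and after both drugs -0.33, -0.27 and -0.68. The combined arrays were all below the L-DOPA arrays, the nearest being -0.27 against -0.23, and replicate 3 of the non-lesioned side was the lowest of all 12.

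The Hsph1 difference for zonisamide was -0.33 ± 0.32, with an interval from -1.04 to 0.39, and did not pass (limma adjusted p = 0.751). It was -0.32, -0.20 and -0.45 on the slides of replicates 1, 2 and 3. L-DOPA minus saline was 0.13 ± 0.32 (limma adjusted p = 0.929), and the lesion gave 0.34 ± 0.32 (adjusted p = 0.775). The lesion value turned to -0.10 without replicate 3 of the non-lesioned side. Most like Hsph1 over the 12 arrays were Rab21 (r = 0.95), Actb (r = 0.939) and Thumpd1 (r = 0.937).

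Hsp90aa1 encodes the stress-inducible cytosolic HSP90. By its brightest probe it read 4.13, 3.67 and 3.66 in the non-lesioned striatum and 3.88, 3.85 and 4.02 after saline. After L-DOPA it read 3.84, 3.97 and 4.00, and after both drugs 3.89, 3.95 and 2.25. Of the 12 arrays, 11 lay within 3.66 to 4.13, and replicate 3 of the combined group stood below them all.

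That array carried the group differences. Zonisamide gave -0.57 ± 0.38 and the combined group against saline -0.55 ± 0.38, neither of which passed (limma adjusted p = 0.608 and 0.739). L-DOPA minus saline was 0.02 ± 0.38 and the lesion 0.10 ± 0.38 (limma adjusted p = 0.993 and 0.959). The array has the lowest 75th percentile of all, 793 units, and the largest spread between replicate spots, 27.8%. Without it, zonisamide gave -0.02 and the combined group against saline 0.00 (limma adjusted p = 0.987 and 0.999).

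Probe 2 of Hsp90aa1 read 4.12, 3.28 and 1.37 in the non-lesioned striatum and 3.89, 3.30 and 3.59 after saline. It read 3.74, 3.86 and 3.83 after L-DOPA and 2.51, 3.22 and 0.52 after both drugs. Here the combined arrays were below all saline and all L-DOPA arrays, and replicate 3 was again the lowest. The zonisamide difference was -1.72 ± 0.74 (limma adjusted p = 0.374 over all tested probes), and within slides it was -1.23, -0.63 and -3.31 for replicates 1, 2 and 3. Probe 3 did not follow: it gave 0.01 ± 0.63 for zonisamide, and its lesion difference of 1.45 ± 0.63 (limma adjusted p = 0.600) came with replicate 1 of the non-lesioned side at -0.66, against 1.48 and 1.94 on its other arrays. Over the 12 arrays, r was 0.83 between probes 1 and 2 and 0.17 between probes 1 and 3.

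**Figure D3:**
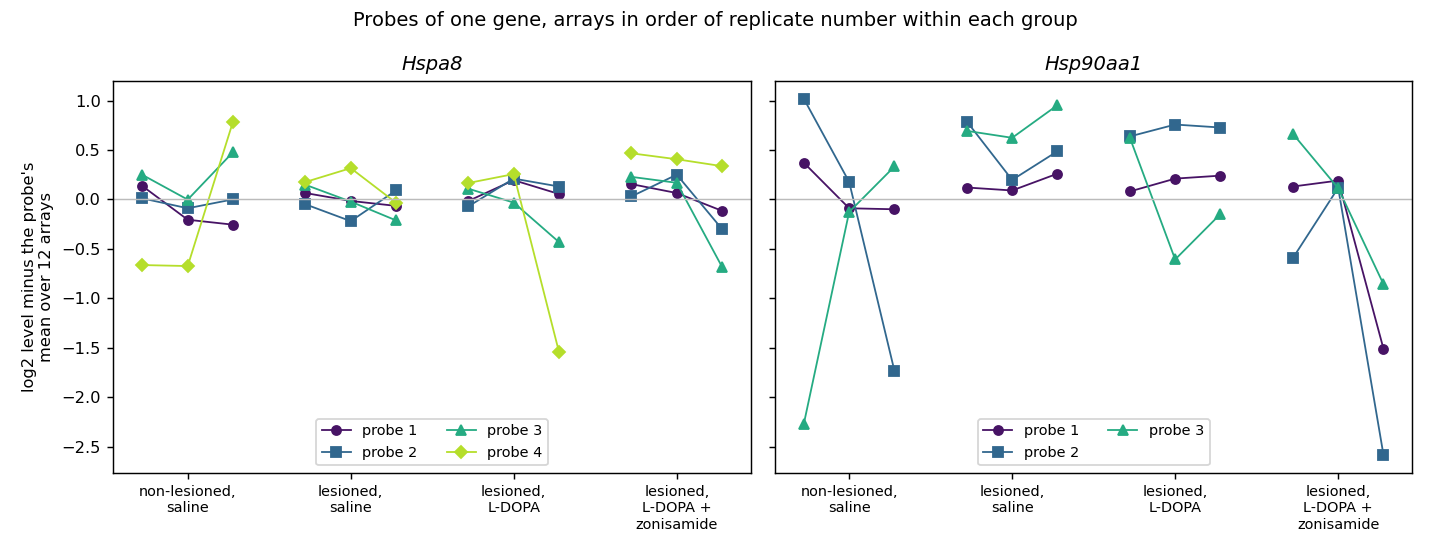
Level of each probe of Hspa8 and Hsp90aa1 minus that probe's mean over the 12 arrays (log2, vertical axis), with arrays in order of replicate number inside each group (horizontal axis). The brightest Hspa8 probe is nearly flat, probe 4 is low on 1 L-DOPA array (-0.31 before centring), and probes 1 and 2 of Hsp90aa1 are low together on replicate 3 of the combined group (2.25 and 0.52 before centring).

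The genes most like Hspa8 were Eprs1 (r = 0.863), Pgls (r = 0.862) and Gpc1 (r = 0.853), and those most like Hsp90aa1 were Zfp707 and Smc4 (both r = 0.966) and Entpd2 (r = 0.965). The likeness to Hsp90aa1 is measured on a pattern in which 1 array stands apart. Hsph1 varied with probe 2 of Hsp90aa1 (r = 0.79), both being low on the same arrays. These were replicate 3 of the non-lesioned side (-1.46 and 1.37) and replicate 3 of the combined group (-0.68 and 0.52).

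Counted over the set, 0 of the 4 members were called at an adjusted p under 0.05 in any of the 6 comparisons. The share of all features called was 0% for the lesion, 0.433% for L-DOPA against saline, 0.479% for zonisamide, 0% for both drugs against saline, 1.16% for L-DOPA against the non-lesioned side and 0% for both drugs against it. At an unadjusted limma p under 0.05 the members counted 0, 1, 1, 0, 1 and 0 in that order, each time Hspb1, against 1646, 2192, 2408, 1424, 2740 and 822 of all features. Groups that did not overlap were seen for 0 of 4 members with the lesion (17.0% of all features), 1 with L-DOPA (22.4%) and 2 with zonisamide (17.3%). In the remaining comparisons the count was 0 (18.1%, 18.9% and 7.19% of all features). With 4 members, 1 of 4 with L-DOPA is a share near the background. The 2 of 4 with zonisamide, Hspb1 and Hsph1, are a larger share than the 17.3%, but of few genes, and neither was called. The L-DOPA and zonisamide counts both use the same L-DOPA arrays.

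**Figure D4:**
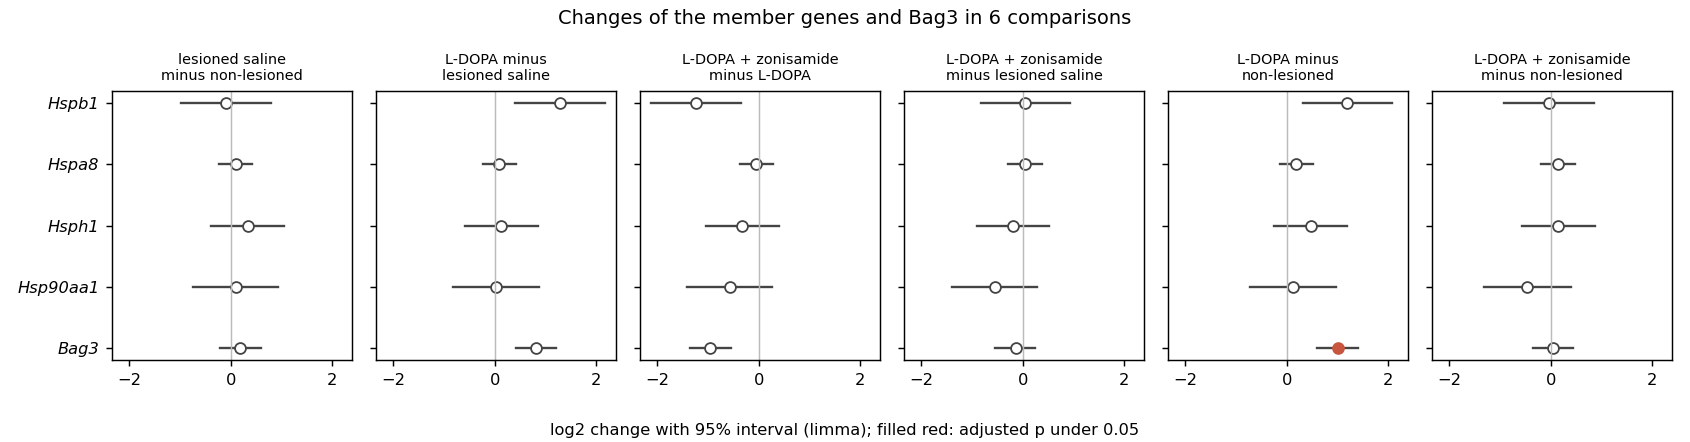
Log2 change with its 95% interval from limma (horizontal axis) of the 4 members and Bag3 (vertical axis) in the 6 comparisons. The Hspb1 interval excludes 0 for L-DOPA against saline (0.40 to 2.18) and for zonisamide (-2.12 to -0.35) without passing the adjustment over all features, and Bag3 passes in L-DOPA against the non-lesioned side.

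To place the members, 9 lists of other heat shock and chaperone genes were counted, with 66 genes of which 61 were matched and 59 tested. In these, 1 gene was called in 1 comparison: Bag3, in L-DOPA against the non-lesioned side. A count of 1 of 59 genes is near the 1.16% of all features called in that comparison, so it says nothing particular about the lists, and Bag3 is described as a single gene. Bag3 is an exchange factor of HSP70 that works with small heat shock proteins to send clients to autophagy. It was singled out after its values were seen.

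Bag3 read 0.09, -0.35 and -0.25 in the non-lesioned striatum and 0.13, 0.07 and -0.12 after saline. After L-DOPA it read 0.54, 1.10 and 0.85, and after both drugs -0.06, -0.14 and -0.18. The 3 L-DOPA arrays were above all 9 others, and replicate 2 was the highest and replicate 1 the lowest of them, as for Hspb1. Bag3 rose against the non-lesioned side by 1.00 ± 0.18, a fold of 2.00 with an interval from 1.52 to 2.63 (limma adjusted p = 0.0367). Its difference between L-DOPA and saline was 0.81 ± 0.18 (adjusted p = 0.10), and for zonisamide -0.95 ± 0.18 (adjusted p = 0.0565).

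Each of these Bag3 comparisons uses the same L-DOPA arrays. On shared slides, L-DOPA minus saline was 0.41 and 1.03, and zonisamide was -0.59, -1.23 and -1.03 for replicates 1, 2 and 3. With Ttr as a covariate, L-DOPA minus saline was 0.82 and the difference from the non-lesioned side 1.00 (limma adjusted p = 0.550 and 0.104). In that fit 0 and 4 of all features were called in these comparisons, against 84 and 225 without Ttr. The call against the non-lesioned side ended in 10 of 18 alternatives, where the change kept its sign and the adjusted p ranged from 0.0202 to 0.218 over all 18. Among them were the fits without replicate 1, 2 or 3 of the non-lesioned side (adjusted p = 0.0518, 0.0995 and 0.0876), without replicate 2 or 3 of L-DOPA (0.149 and 0.119), and with the replicate number as a block (0.083). The marker values given for Hspb1 belong to the same arrays, and their part in the Bag3 call was not tested.

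The transcription factors of the response showed no call. Hsf1, their chief activator, read 0.56, 0.61 and 0.63 after saline and 0.48, 0.32 and 0.58 after L-DOPA. Hsbp1, a small protein that binds the factor's trimer, differed by 0.42 ± 0.14 with L-DOPA (limma adjusted p = 0.296). Of the other small heat shock proteins, 6 of 8 were tested, and 2 were higher and 4 lower with L-DOPA, with 0 called. Hspb3 had the largest difference there, 1.69 ± 0.64 (limma adjusted p = 0.352), but was well above background on only 1 of the 3 saline arrays.

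Among the other J proteins, which start the HSP70 cycle, 7 of 9 were higher with L-DOPA (46.7% of all features were higher) and 0 were called. Dnajb5 read -1.93, -1.94 and -2.90 in the non-lesioned striatum, -1.63, -1.75 and -1.63 after saline, and -1.45, -1.06 and -1.07 after L-DOPA. Its difference between L-DOPA and the non-lesioned side was 1.06 ± 0.25 (limma adjusted p = 0.0746). In the list of other HSP70 and HSP110 proteins, Hspa12a differed by 0.83 ± 0.25 with zonisamide (limma adjusted p = 0.187). It read 1.04, 0.19 and 0.60 after L-DOPA and 1.87, 1.28 and 1.17 after both drugs. After saline it read 1.04, 1.12 and 0.73, which overlaps the L-DOPA arrays.

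With the lesion, 7 of the 8 genes of the HSP90 list and 7 of the 8 subunits of TRiC, the chaperonin that folds actin and tubulin, were lower, again with 0 called and medians of -0.20 and -0.18. Over all features, 55.4% were higher with the lesion. Of the 4 mitochondrial chaperones, Hspe1, the co-chaperonin of HSP60, read 3.38, 3.51 and 3.53 in the non-lesioned striatum and 2.91, 3.08 and 3.12 after saline (-0.44 ± 0.14, limma adjusted p = 0.502). Among chaperones of the endoplasmic reticulum, 7 of 8 were higher with L-DOPA (median 0.24, with 46.7% of all features higher) and 0 were called. The exception was Pdia4, a disulfide isomerase, at -1.46 ± 0.41 (limma adjusted p = 0.205). Dnajb11, a J protein of that compartment, differed by 0.44 ± 0.15 (adjusted p = 0.296).

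**Figure D5:**
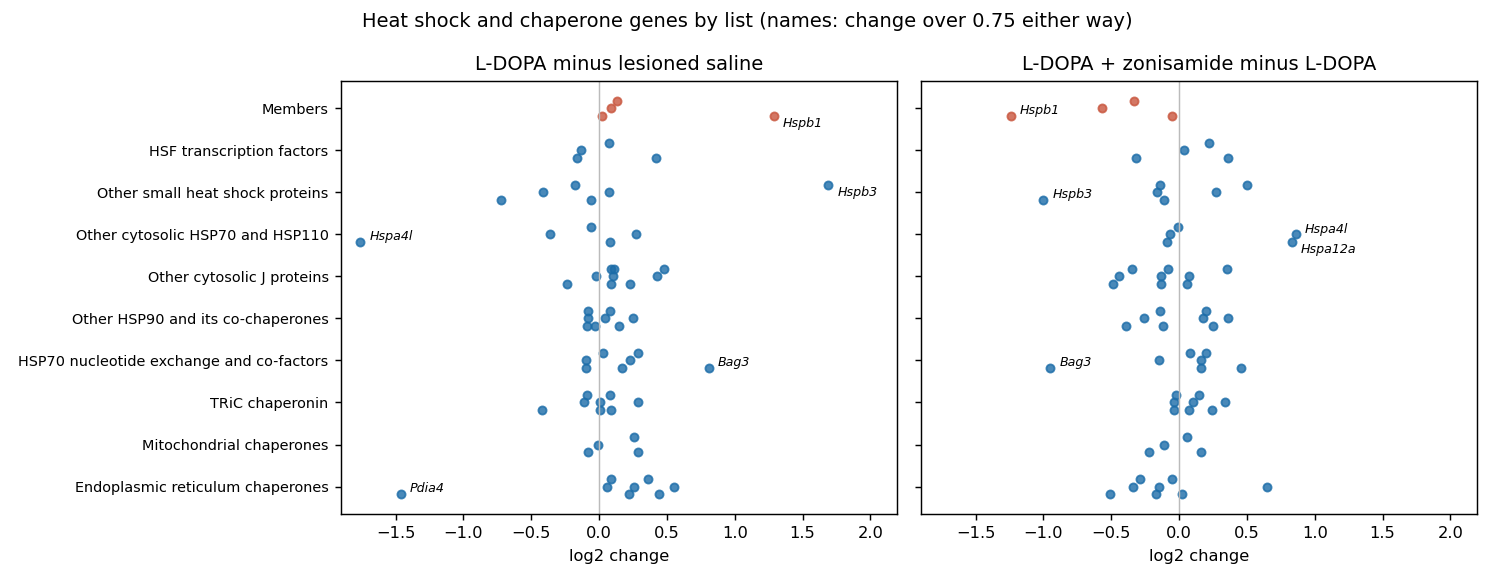
Log2 change of each tested gene of the 9 heat shock and chaperone lists (horizontal axis; 1 point per gene, rows are lists) with L-DOPA against saline and with zonisamide against L-DOPA; names are given where a change exceeds 0.75 either way. The points of most lists lie on both sides of 0, with medians over the 59 genes of 0.07 for L-DOPA and -0.02 for zonisamide.

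Over the 59 genes the median change was 0.07 with L-DOPA and -0.02 with zonisamide, against -0.03 in both comparisons over all features. It was -0.11 with the lesion, against 0.05. At an unadjusted limma p under 0.05 there were 8.47% of the 59 genes with L-DOPA (11.3% of all features), 3.39% with zonisamide (12.4%), 5.08% with the lesion (8.48%) and 11.9% for L-DOPA against the non-lesioned side (14.1%). In none of these comparisons did the lists hold a larger share of such genes than the array as a whole. For both drugs together, the share was 0% against saline (7.34% of all features) and 3.39% against the non-lesioned side (4.23%).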

How the data were processed

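RNA of 12 striatum samples was labelled with Cy3 and hybridised to single-colour Agilent arrays. Per the file headers, the authors' processed signal is an intensity with its background subtracted within the array and no scaling between arrays. The submitters' processing notes name Agilent Feature Extraction 10.7. The authors' combined table held the same intensity on 755712 of 755712 spots, within a relative tolerance of 1e-06. The median brightness of a spot and its surroundings, also a deposited intensity, was used in 1 alternative.

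Control and outlier spots were left out (4259 of 62976 spots per array were controls) and the spots of a probe averaged. Log2 signals were scaled by each array's 75th percentile over spots. Probes were tested where at least 0.5 of their spots were marked well above background on all 3 arrays of a group. Of 30367 probes, 17328 matched 1 RefSeq symbol and 13039 none; 21469 were tested. The brightest probe stood for a gene, giving 19412 features (11110 with a symbol). Coordinates are those of RefSeq's build GRCr8, which is not that of the array design.

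All 12 arrays were fitted in 1 model of 4 groups with limma 3.58.1 (R 4.3.3, package data.table, version 1.17.8), with 8 residual degrees of freedom. Tests are two-sided, adjusted by Benjamini-Hochberg over all features, with a threshold of 0.05. An exact permutation test of 3 against 3 arrays cannot go below p = 0.1. The fit was tested on simulated data. The members and gene lists were chosen with earlier results of these data known. The text names all members and the 3 features most like each member. Of a list it names genes that passed, otherwise at most the 3 with the smallest p. The spiny neuron genes that passed are only counted. Hsf1 and Ppp1r1b lie outside this rule and are named for their role.

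Arrays of equal replicate number lay on 1 slide in the zonisamide comparison. Their residuals from the group mean had correlations of 0.37, 0.19 and 0.25 for numbers 1, 2 and 3. The main fit did not pair the numbers. As an alternative, the replicate number was a block in every comparison, also where arrays of equal number lay on different slides. For L-DOPA against the non-lesioned side this held for numbers 2 and 3, with correlations of 0.05 and 0.11. The alternatives were quantile normalization, normexp (offset 50), filters on dim probes, the mean of a gene's probes, the 2 groups alone, another variance prior, array weights, replicate and slide blocks, Ttr as a covariate, and leaving out arrays. Other probes of a gene, and Bag3 under all alternatives, were added after the data were seen.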

Additional observations from a re-analysis of the deposited data

How the results depend on the processing

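Over 474 pairs of a member gene and an alternative, 414 kept direction and side of the threshold, 57 changed direction and 3 newly passed. The 3 were Hspb1 for L-DOPA, zonisamide and L-DOPA against the non-lesioned side, each without replicate 1 of the L-DOPA group. Over all features, those fits called 210, 253 and 350, against 84, 93 and 225 with all arrays. The count of members called was 0 in each of the 6 comparisons, and with single arrays left out it lay between 0 and 1 for those 3 comparisons and at 0 for the others. Every change of direction was in a value that had not passed, and its cause was not tested.

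With the replicate number as a block, Hspb1 gave 1.29 for L-DOPA (limma adjusted p = 0.218) and -1.24 for zonisamide (adjusted p = 0.212), and the block changed no call of a member; it ended that of Bag3 against the non-lesioned side (adjusted p = 0.083). Array weights gave Bag3 0.82 for L-DOPA (limma adjusted p = 0.0245). With zonisamide, Bag3 newly passed with an intensity trend (adjusted p = 0.0499), array weights (0.0434), slide as a random block (0.0398) and without replicate 1 of L-DOPA (0.0291).

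Directions turned as follows. Quantile normalization gave the lesion as -0.08 in Hspa8 and -0.02 in Hsp90aa1, and zonisamide as 0.07 in Hspa8. Normexp gave the lesion as 0.27 in Hspb1 and -0.10 in Hsp90aa1, and in Hspa8 it gave -0.43 with L-DOPA, 0.18 with zonisamide and -0.25 with both drugs. It also gave Hspb1 -0.26 for both drugs and 0.01 for both drugs against the non-lesioned side, and Hsp90aa1 0.00 for L-DOPA against that side. Slide as a fixed block gave the lesion as -0.03 in Hspa8, -0.32 in Hsph1 and -0.41 in Hsp90aa1. Against the non-lesioned side it gave L-DOPA as -0.02 in Hsph1 and -0.10 in Hsp90aa1, and both drugs as -0.34 in Hsph1. Ttr as a covariate gave the lesion as 0.14 in Hspb1 and -0.08 in Hsp90aa1, and both drugs as -0.26 in Hspb1 and 0.07 in Hsph1. The mean of a gene's probes gave Hspa8 -0.09 for L-DOPA, 0.16 for zonisamide and -0.06 for L-DOPA against the non-lesioned side, and Hsp90aa1 -0.19 for L-DOPA.

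Without the 5 arrays of high spot spread, which hold all 3 of the non-lesioned side, Hsp90aa1 gave -0.01 with L-DOPA, 0.02 with zonisamide and 0.00 with both drugs, Hspa8 0.02 with zonisamide and Hspb1 -0.02 with both drugs. Of the other probes of Hspa8, probe 2 gave the lesion as -0.03. Probe 3 gave -0.27 with the lesion, -0.09 with L-DOPA, 0.02 with zonisamide, -0.06 with both drugs, and -0.36 and -0.34 for L-DOPA and both drugs against the non-lesioned side. Probe 4 gave -0.53 for L-DOPA, 0.77 for zonisamide and -0.19 for L-DOPA against the non-lesioned side. Probe 3 of Hsp90aa1 gave -0.80 with L-DOPA, 0.01 with zonisamide and 0.66 with both drugs against the non-lesioned side.

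With single arrays left out, the lesion ranged from -0.19 to 0.08 in Hspb1 and from -0.10 to 0.66 in Hsph1, L-DOPA from -0.02 to 0.07 in Hsp90aa1, and zonisamide from -0.11 to 0.03 in Hspa8. Both drugs ranged from -0.02 to 0.17 in Hspb1, -0.02 to 0.12 in Hspa8 and -0.85 to 0.00 in Hsp90aa1. Against the non-lesioned side they ranged from -0.14 to 0.14 in Hspb1, -0.30 to 0.47 in Hsph1 and -0.75 to 0.10 in Hsp90aa1. All member probes were well above background on all 12 arrays.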
